A study of Rattus norvegicus albus with 14 samples.

Results

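Mitochondrial ribosomal protein genes were followed through 4 groups of cultured rat heart cells. Members were the genes whose symbol is Mrpl or Mrps followed by a number and, where present, a letter from a to c. This gave 74 genes of 32545 in the tables, 45 named for the large subunit of the mitochondrial ribosome and 29 named for the small subunit. Each symbol had 1 gene identifier. The rule used names only and no measured value, but it was chosen with earlier results of these data known. The cells were ventricular myocytes of neonatal rats (Sprague-Dawley, 1 day old), pooled across animals and cultured on fibronectin. The 3 treated groups had received rosiglitazone at 10 µmol/L with 1% DMSO for 0.5, 24 or 48 h, with 2 libraries each. The control group had received 1% DMSO alone for 0.5 h and consisted of 1 library. The drug is a thiazolidinedione and an agonist of PPARγ, a nuclear receptor that controls lipid genes. No vehicle library at 24 or 48 h was analysed here, so exposure time and time in culture cannot be told apart.

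Mitochondria keep a ribosome of their own, built from RNAs of the mitochondrial genome and from proteins that are encoded in the nucleus, made in the cytosol and imported. It translates the messages of the mitochondrial genome, all of which encode core subunits of the oxidative phosphorylation complexes that supply a beating heart with ATP. Some of its proteins descend from bacterial ribosomal proteins and others occur in mitochondrial ribosomes only. In humans, inherited defects of several of them, such as MRPL3, MRPL44 and MRPS22, cause combined respiratory chain deficiency with cardiomyopathy.

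Levels are given as CPM, the counts of a gene relative to the library's TMM-scaled size. Libraries held 10886559 to 28074620 counts, the shallowest being replicate 2 at 48 h. Whether the 2 libraries of a group are separate cultures is not stated in the labels, so the spread behind the p-values may be technical only. The labels state that preplating left more than 98% myocytes. All 8 cardiomyocyte markers measured had counts in every library, but together they held 0.804 and 0.251% at 24 h and 0.0342 and 0.156% at 48 h of a library, against 1.08 and 1.02% at 0.5 h of rosiglitazone and 0.643% with DMSO. The 6 fibroblast markers measured held 2.87 and 3.14% at 24 h and 1.65 and 3.00% at 48 h, against 4.72 and 4.87% at 0.5 h of rosiglitazone and 4.88% with DMSO. Col1a1, a collagen, held most of that early sum, and in the late against 0.5 h comparison it fell (log2 fold change -1.38 ± 0.33, SE; adjusted p = 0.0391 by edgeR), whereas Dcn, a proteoglycan of the same list, rose (log2 fold change 1.95 ± 0.31, SE; adjusted p = 0.0115 by edgeR) and the other 4 did not pass. All 7 macrophage markers had counts in every library and held 0.00663 to 0.0104% at 24 and 48 h. At 0.5 h they held 0.0181 and 0.0225% with rosiglitazone but 0.0584% with DMSO, so the vehicle library differed here from the treated ones. The 5 smooth muscle markers held 0.00528 to 0.0923% at 24 and 48 h, against 0.286 to 0.355% at 0.5 h, and Rgs5 of that list had 0 counts in at least 1 library. The 4 endothelial markers held 0.00298 to 0.00710% at 24 and 48 h, against 0.0116 to 0.0133% at 0.5 h. In such bulk samples, fewer cells of a type and less RNA per cell cannot be told apart, and the part of these shifts in the results below was not tested.

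Of the 74 members, 71 had counts in every library, 72 entered the test and 70 averaged at least 5 CPM. Mrpl17, Mrpl15, Mrpl12 and Mrpl3, all large subunit proteins with bacterial relatives, held the most counts. Mrpl17 had 122 CPM with DMSO, 131 and 152 CPM at 0.5 h, 216 and 180.4 CPM at 24 h and 172 and 192 CPM at 48 h of rosiglitazone. Mrpl12, whose product belongs to the stalk that recruits translation factors, had 76.3 CPM with DMSO, 79.4 and 106 CPM at 0.5 h, 211 and 96.6 CPM at 24 h and 101 and 162 CPM at 48 h. Counts depend on transcript length, so this order ranks counts and not transcript numbers. At the other end, Mrpl49 had 23 to 147 counts per library, and Mrpl40, Mrpl34 and Mrpl47 came next. Mrpl53 had 0 counts in every library, which allows up to 0.107 CPM in the deepest and 0.276 CPM in the shallowest. Mrpl1 had 7 counts in replicate 1 at 0.5 h of rosiglitazone and 0 elsewhere. Mrpl36 had 14 counts in replicate 2 at 48 h, 1 count in replicate 1 at 0.5 h of rosiglitazone and 0 elsewhere, so no fold change is given for it.

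**Figure D1:**
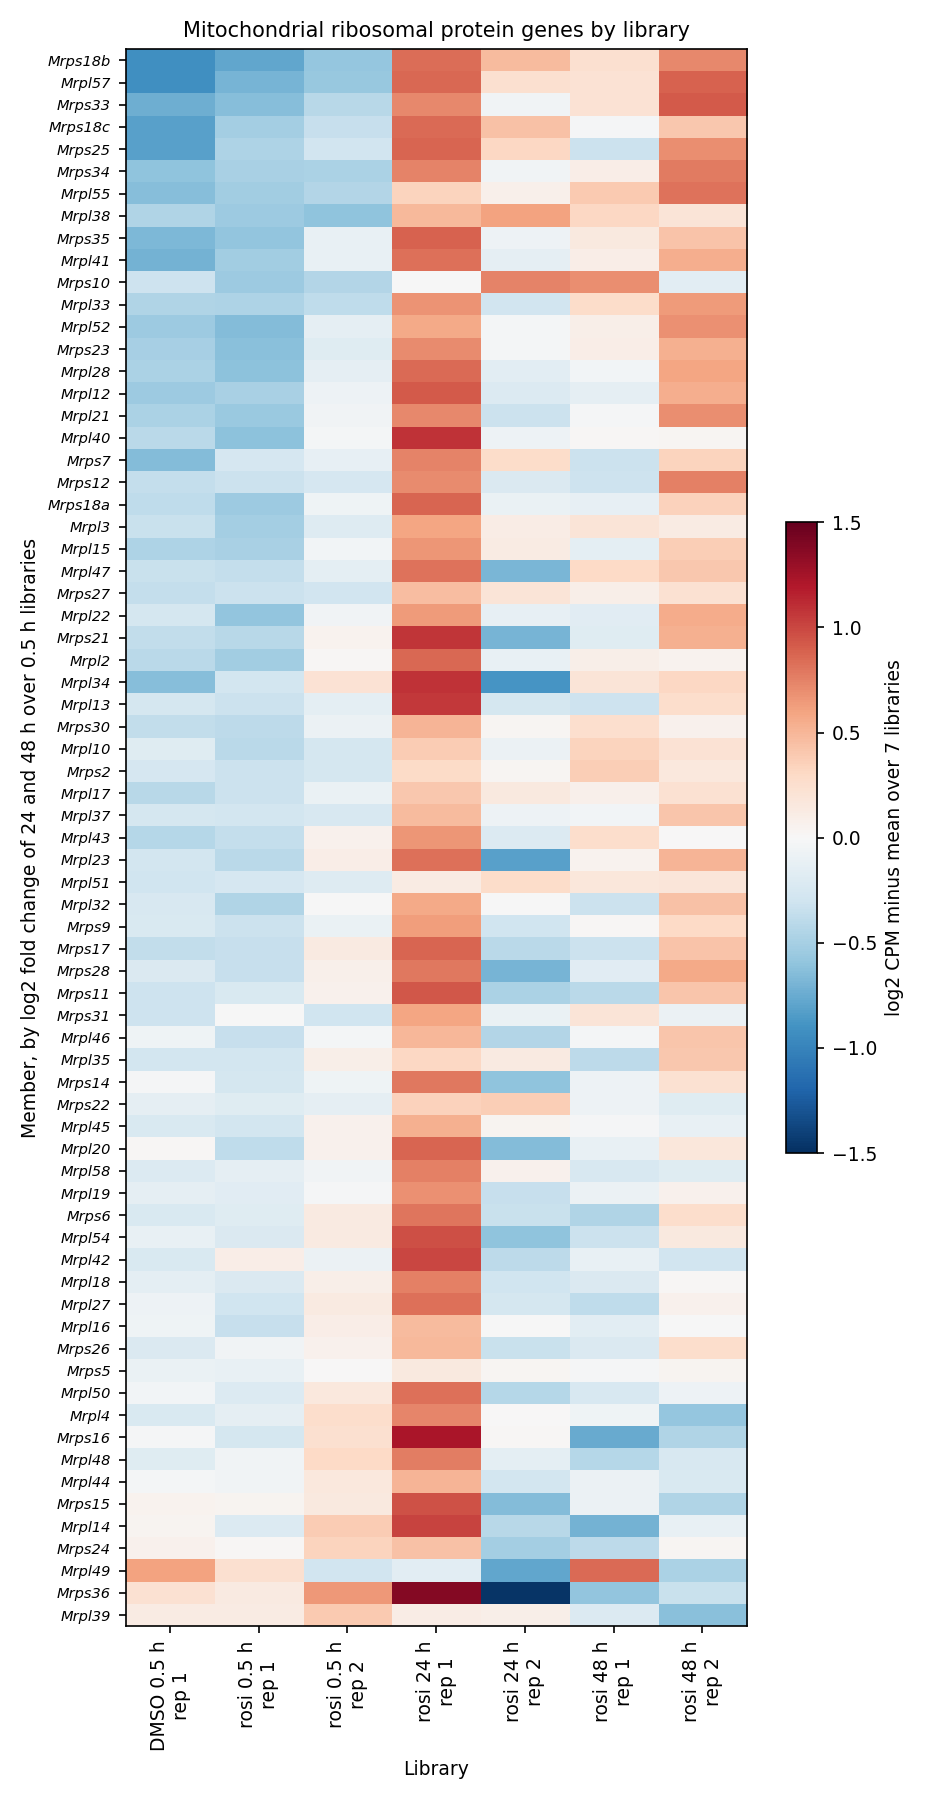
Log2 CPM of the 71 members with counts in every library, each minus its own mean over the 7 libraries (color scale), with libraries in columns and members in rows ordered by the fitted difference between the 24 and 48 h libraries and the 0.5 h libraries. Replicate 1 at 24 h is the highest library for 57 of the 71 members, and Mrps36 and Mrpl39 at the bottom depart from the rest.

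Summed over the members, the mitochondrial ribosomal protein genes held 0.483 and 0.317% at 24 h and 0.309 and 0.384% at 48 h of a library's counts, against 0.251 and 0.305% at 0.5 h of rosiglitazone and 0.256% with DMSO. By this share every 24 and 48 h library lay above every 0.5 h library. However, replicate 2 at 24 h and replicate 1 at 48 h exceeded replicate 2 at 0.5 h by little. The margins were below the pooled SD between replicates, 0.0777 percentage points. In summed CPM late and early libraries overlapped, with 3006 CPM in replicate 2 at 24 h against 3038 CPM in replicate 2 at 0.5 h. The median log2 CPM of the members was 5.13 in replicate 2 at 24 h and 5.20 in replicate 1 at 48 h. In replicate 2 at 0.5 h of rosiglitazone this median was higher, at 5.30. The highest share belonged to replicate 1 at 24 h, whose partner stood close to the top of the 0.5 h range. Within the 24 h group the members differed together. Among the 70 members with at least 5 CPM, 66 were higher in replicate 1 than in replicate 2, with a median log2 ratio of 0.89, whereas the median over 10425 genes at that level was 0.08. The pairs at 0.5 and 48 h leaned the other way, with medians of -0.31 and -0.33 and 3 and 16 of the 70 members higher in replicate 1. Other sums differed between these libraries in both directions. In replicate 1 and replicate 2 at 24 h, nuclear subunits of oxidative phosphorylation held 2.61 and 1.27%, genes of the mitochondrial genome 3.29 and 0.801%, and cardiomyocyte markers 0.804 and 0.251%. Lower in replicate 1 than in replicate 2 at 24 h were mitochondrial aminoacyl-tRNA synthetases at 0.0406 and 0.0597%, transcription and biogenesis factors at 0.0898 and 0.111%, and fibroblast markers at 2.87 and 3.14%. Their part in the spread of the members was not tested.

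**Figure D2:**
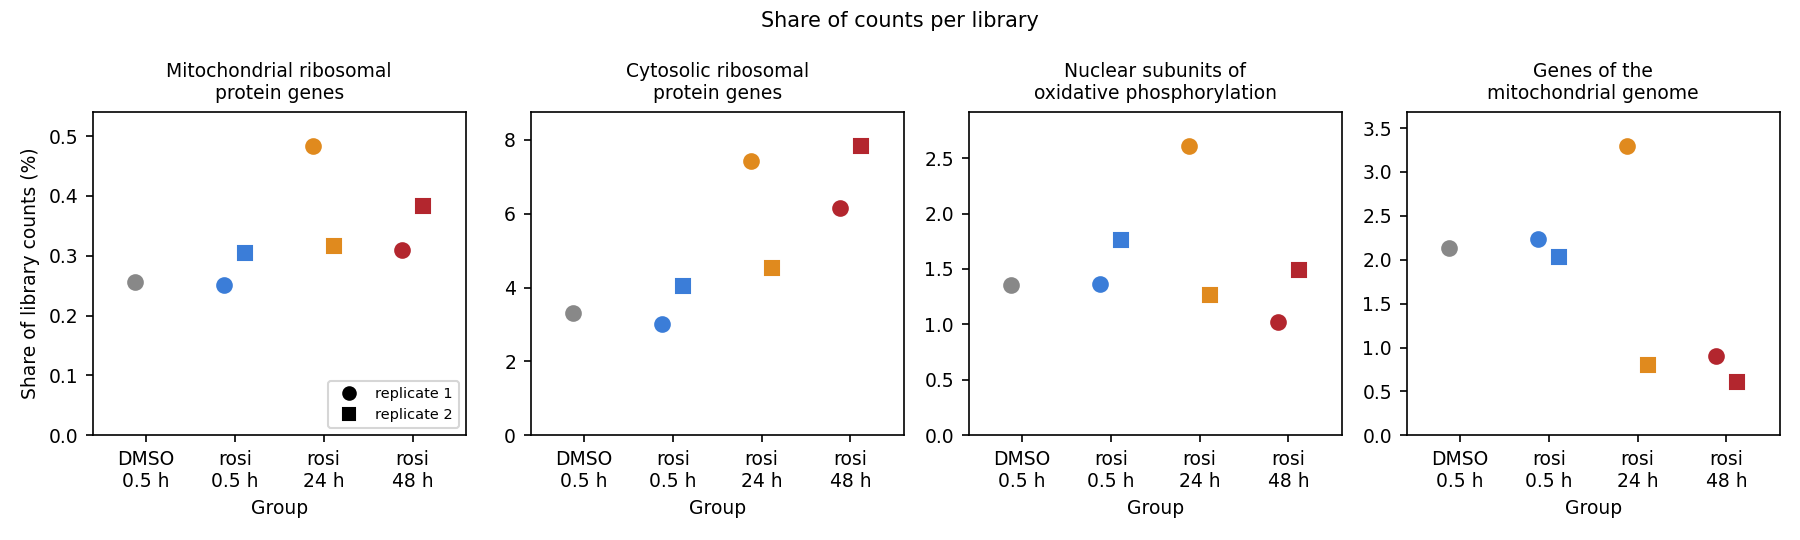
Share of each library's counts (percent, vertical axes from 0) held by 4 gene groups, by group of libraries (horizontal axes), with 1 point per library. The mitochondrial ribosomal protein genes lie between 0.251 and 0.306% at 0.5 h and between 0.309 and 0.483% at 24 and 48 h, while genes of the mitochondrial genome are below 1% in 3 of the 4 late libraries.

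The comparison with the most libraries set the 4 libraries of 24 and 48 h against the 3 libraries of 0.5 h, DMSO included. In this comparison 5 of the 72 members tested rose and none fell, by edgeR's quasi-likelihood test with Benjamini-Hochberg adjustment over 15655 genes and a threshold of 0.05. They were Mrps18b and Mrps18c of the small subunit and Mrpl57, Mrpl38 and Mrpl55 of the large subunit. Over all genes tested, 11.4% passed in either direction, 4.11% as higher and 7.29% as lower. The members' 6.94% was thus below the share of all genes called in either direction and above the share called higher. At an unadjusted p under 0.05, 22 members were higher and 0 lower, where 12.1% of all genes were higher and 16.4% lower. The fitted log2 fold change was positive for 64 of the 72 members with a median of 0.46, against 46.9% of all genes and a median of -0.07. Medians and counts by sign over the members tested include Mrpl36 in every comparison, although its counts came almost only from replicate 2 at 48 h. With a filter at a mean of 5 CPM, which drops Mrpl36, the median over 70 members was 0.44, against 0.04 over all genes.

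Mrps18b had the largest log2 fold change. It stood at 88.7 and 68.7 CPM at 24 h and 58.7 and 82.0 CPM at 48 h, against 28.9 and 33.3 CPM at 0.5 h of rosiglitazone and 26.2 CPM with DMSO. All 4 late libraries exceeded all 3 early ones by a wide margin, and the log2 fold change was 1.34 ± 0.24 (SE; adjusted p = 0.0160 by edgeR). Mrps18c stood at 75.5 and 56.6 CPM at 24 h and 41.3 and 55.2 CPM at 48 h, against 29.4 and 32.8 CPM at 0.5 h of rosiglitazone and 23.8 CPM with DMSO, and its log2 fold change was 0.99 ± 0.24 (SE; adjusted p = 0.0391 by edgeR). Mammals carry 3 versions of this protein, all relatives of a single bacterial small subunit protein. In the mammalian structure the b and c versions sit in the small subunit and the a version in the large subunit. Mrps18a stood at 98.6 and 50.2 CPM at 24 h and 49.7 and 68.6 CPM at 48 h, against 37.0 and 51.4 CPM at 0.5 h of rosiglitazone and 41.5 CPM with DMSO. Its late libraries overlapped the early ones and it did not pass, with a log2 fold change of 0.61 ± 0.30 (SE; adjusted p = 0.233 by edgeR). The differences in fold change among the 3 versions were not tested.

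Mrpl57, a short protein of the large subunit found in mitochondrial ribosomes only, stood at 38.9 and 25.4 CPM at 24 h and 24.9 and 39.8 CPM at 48 h, against 13.2 and 14.4 CPM at 0.5 h of rosiglitazone and 11.3 CPM with DMSO. Its groups did not overlap, and its log2 fold change was 1.32 ± 0.30 (SE; adjusted p = 0.0343 by edgeR). Mrpl38, a large subunit protein with a fold related to phosphatidylethanolamine-binding proteins, stood at 37.2 and 40.3 CPM at 24 h and 32.7 and 30.2 CPM at 48 h, against 18.1 and 17.4 CPM at 0.5 h of rosiglitazone and 19.4 CPM with DMSO. Its replicates lay closer together than those of the other 4, and 24 h was the higher of the late times in both libraries. The log2 fold change of Mrpl38 was 0.93 ± 0.23 (SE; adjusted p = 0.0393 by edgeR). Mrpl55, another large subunit protein, stood at 35.8 and 30.0 CPM at 24 h and 37.3 and 50.0 CPM at 48 h, against 19.8 and 21.0 CPM at 0.5 h of rosiglitazone and 18.2 CPM with DMSO. Mrpl55 was highest at 48 h, unlike Mrpl38, and its log2 fold change was 0.95 ± 0.24 (SE; adjusted p = 0.0460 by edgeR). The next member, Mrps33 of the small subunit, stood at 79.4 and 46.5 CPM at 24 h and 56.1 and 91.5 CPM at 48 h, against 30.9 and 36.1 CPM at 0.5 h of rosiglitazone and 29.1 CPM with DMSO. Its groups did not overlap, but it missed the threshold with a log2 fold change of 1.09 ± 0.29 (SE; adjusted p = 0.0550 by edgeR).

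These 5 calls depended on the libraries in the fit. Without replicate 1 or replicate 2 at 0.5 h of rosiglitazone no member passed, where 1.87 and 2.6% of all genes tested did. Without the DMSO library Mrps18b alone passed, where 2.02% of all genes were higher and 4.78% lower. It was again alone without replicate 1 at 48 h, where 1.1% of all genes were higher and 3.06% lower, and without replicate 2 at 48 h, where 1.66% were higher and 5.15% lower. Without replicate 1 at 24 h, 7 members were higher and 1, Mrps36, was lower, where 8.77% of all genes were higher and 14.3% lower. Without replicate 2 at 24 h, 20 members were higher and 0 lower, where 8.67% of all genes were higher and 13.5% lower. More genes thus passed without either 24 h library, among all genes as among the members. The log2 fold changes themselves moved little when a library was left out, between 1.21 and 1.44 for Mrps18b, 1.13 and 1.44 for Mrpl57, 0.87 and 1.09 for Mrps18c, 0.88 and 0.99 for Mrpl38 and 0.84 and 1.02 for Mrpl55.

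**Figure D3:**
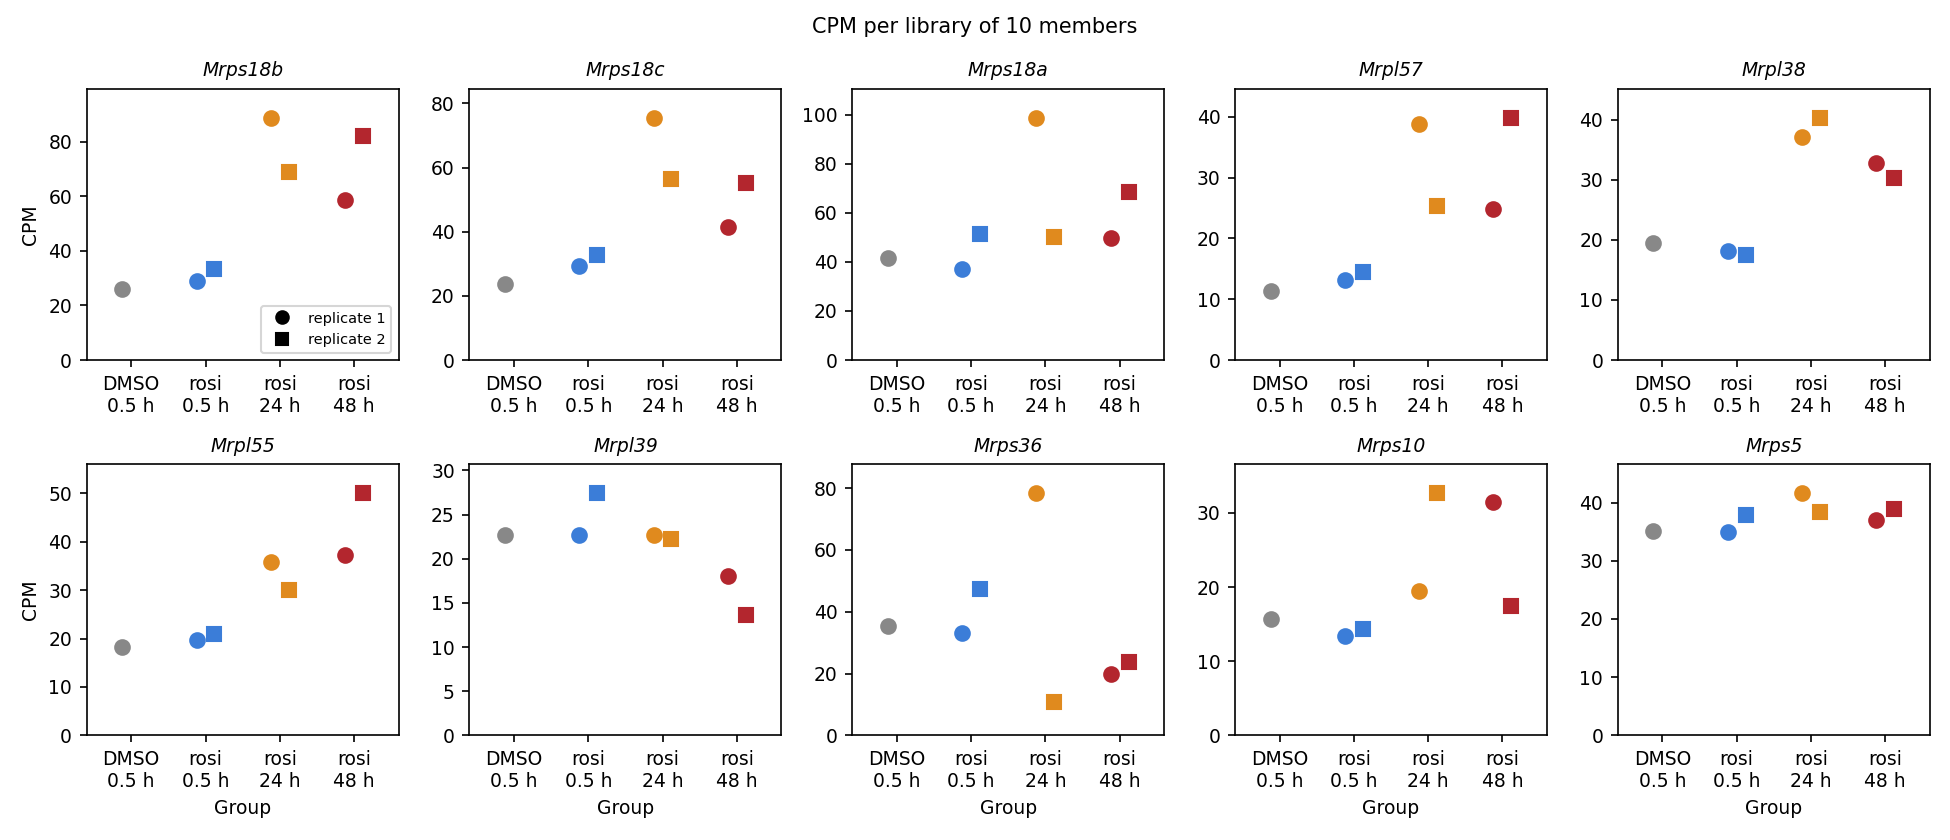
CPM per library (vertical axes from 0, on scales of their own) of 10 members by group of libraries, with circles for replicate 1 and squares for replicate 2. The 4 late libraries of Mrps18b lie between 58.7 and 88.7 CPM and its 3 early libraries between 26.2 and 33.3 CPM, Mrps36 differs most between the 24 h libraries, and Mrps5 stays between 34.9 and 41.6 CPM.

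Counted by raw overlap, 20 of the 72 members tested (27.8%) were higher in every 24 and 48 h library than in every 0.5 h library, where 14.2% of all genes tested were. Mrpl39 alone (1.39%) was lower in every late library, where 19.5% of all genes tested were. Mrpl39, a large subunit protein with a domain related to aminoacyl-tRNA synthetases, stood at 22.6 and 22.2 CPM at 24 h and 18.1 and 13.6 CPM at 48 h, against 22.7 and 27.4 CPM at 0.5 h of rosiglitazone and 22.7 CPM with DMSO. The 24 h libraries of Mrpl39 were almost level with the lowest early libraries and the 48 h libraries stood clearly below them, and the gene did not pass, with a log2 fold change of -0.36 ± 0.25 (SE; adjusted p = 0.389 by edgeR).

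Of the 67 members that did not pass, 59, Mrpl36 included, had a positive log2 fold change and 8 a negative one. Mrps24, a relative of a bacterial small subunit protein, stood at 32.1 and 16.6 CPM at 24 h and 17.9 and 24.2 CPM at 48 h, against 23.9 and 29.9 CPM at 0.5 h of rosiglitazone and 24.8 CPM with DMSO, and did not pass with -0.21 ± 0.31 on the log2 scale (SE; adjusted p = 0.707 by edgeR). Mrps36, listed by symbol with the small subunit but known as a subunit of the 2-oxoglutarate dehydrogenase complex of the citric acid cycle, varied most among the members. Its level was 78.3 and 10.8 CPM at 24 h and 20.0 and 23.8 CPM at 48 h, against 33.1 and 47.3 CPM at 0.5 h of rosiglitazone and 35.2 CPM with DMSO, so its highest and lowest values both came from 24 h. Mrpl14, a large subunit protein with a bacterial relative, stood at 41.4 and 15.5 CPM at 24 h and 12.6 and 19.1 CPM at 48 h, against 17.9 and 26.8 CPM at 0.5 h of rosiglitazone and 21.2 CPM with DMSO, and here too replicate 1 at 24 h was far above the other late libraries. Neither Mrps36 nor Mrpl14 passed, and the sign of both fold changes depended on which library was left out.

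**Figure D4:**
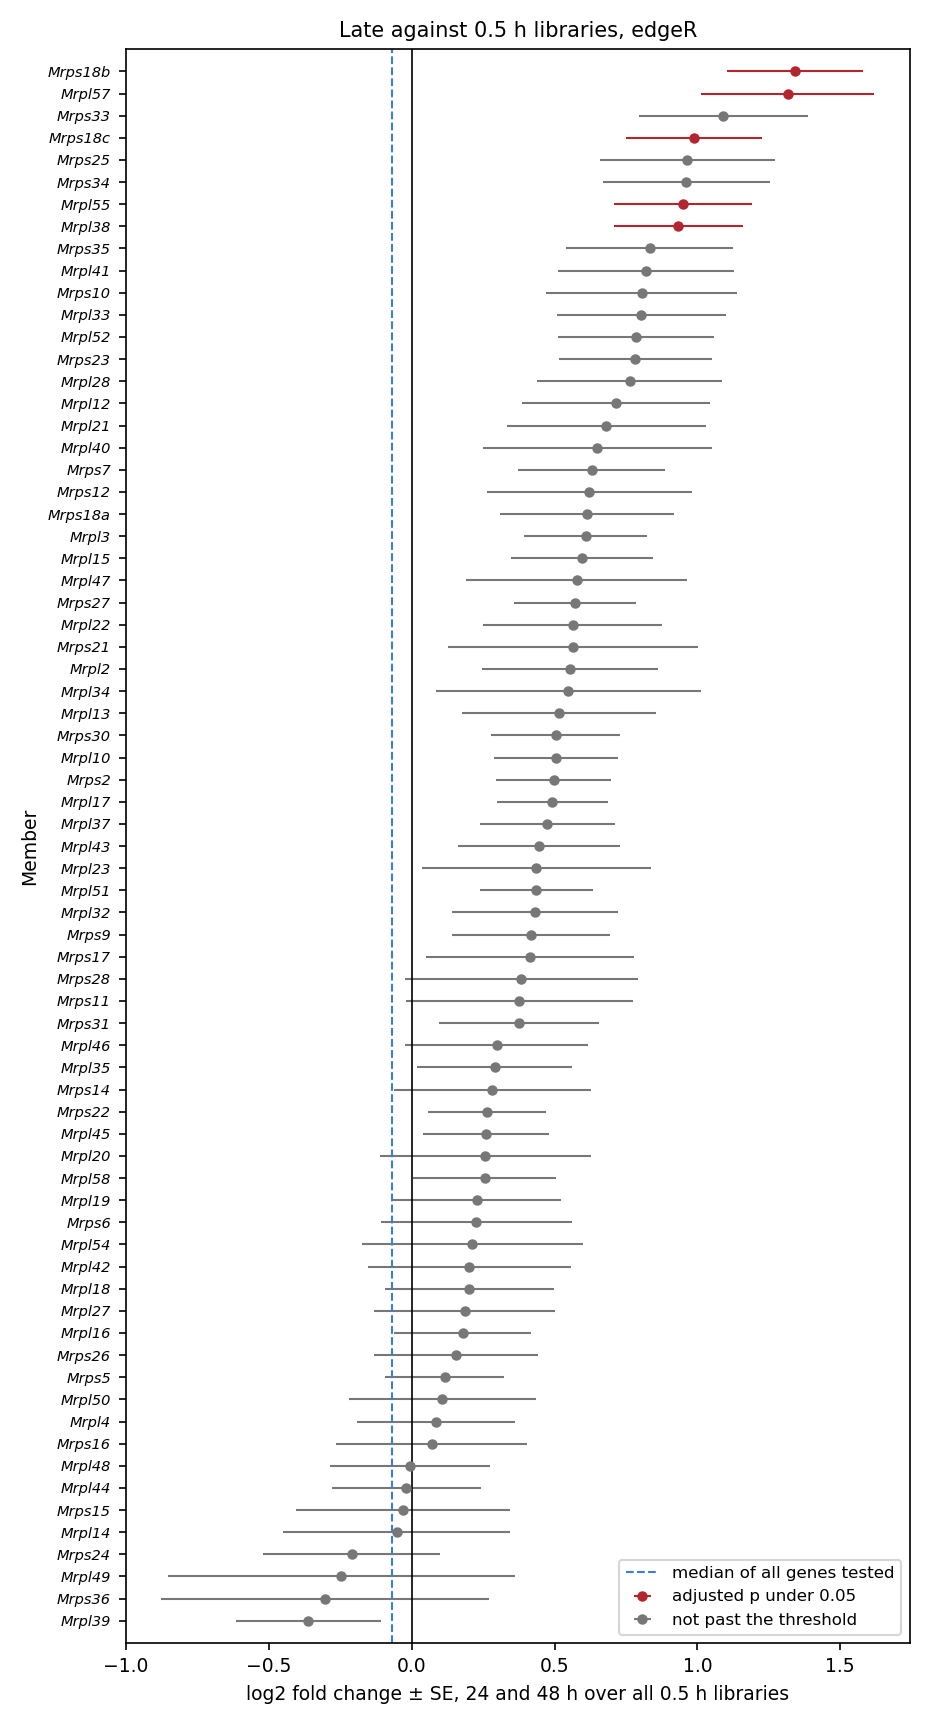
Log2 fold change of 71 members, 24 and 48 h libraries over all 0.5 h libraries (horizontal axis, points with bars of 1 SE from edgeR), with the 5 members past the threshold in red and the median of all genes tested as a dashed line. Mrps18b and Mrpl57 lead at 1.34 and 1.32, the median of the members is 0.46, and Mrpl39 is lowest.

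Among the members with the smallest spread was Mrps5. It is a small subunit protein with a bacterial relative and had 41.6 and 38.4 CPM at 24 h and 37.0 and 38.9 CPM at 48 h, against 34.9 and 37.9 CPM at 0.5 h of rosiglitazone and 35.1 CPM with DMSO, the smallest spread of all members with an SD of 0.0877 on the log2 CPM scale over the 7 libraries. Mrps22, a small subunit protein found in mitochondria only, had 49.0 and 49.7 CPM at 24 h but 36.6 and 34.0 CPM at 48 h, against 34.1 and 35.2 CPM at 0.5 h of rosiglitazone and 35.1 CPM with DMSO. Both 24 h libraries of Mrps22 were above all others, but the gene did not pass at 24 h against 0.5 h (log2 fold change 0.51 ± 0.27, SE; adjusted p = 0.402 by edgeR). Over the 70 members with at least 5 CPM, the SD of log2 CPM had a median of 0.471, against 0.464 over the 10425 genes at that level, so the members as a group were about as variable as other genes.

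Members with well-studied roles included some whose groups separated and some whose groups overlapped. Mrpl3, near the catalytic centre of the large subunit, stood at 152 and 109 CPM at 24 h and 115 and 109.9 CPM at 48 h, against 70.6 and 88.0 CPM at 0.5 h of rosiglitazone and 79.8 CPM with DMSO, and its groups did not overlap (log2 fold change 0.61 ± 0.21, SE; adjusted p = 0.112 by edgeR). Mrps30, placed in the large subunit by the mammalian structure in spite of its name, stood at 86.0 and 61.6 CPM at 24 h and 71.9 and 63.2 CPM at 48 h, against 45.9 and 56.7 CPM at 0.5 h of rosiglitazone and 46.9 CPM with DMSO, again without overlap (adjusted p = 0.191 by edgeR). Mrps12, a protein of the decoding centre, stood at 40.8 and 21.4 CPM at 24 h and 20.2 and 42.1 CPM at 48 h, against 20.1 and 21.0 CPM at 0.5 h of rosiglitazone and 19.5 CPM with DMSO. For Mrps12 the high libraries were replicate 1 at 24 h and replicate 2 at 48 h, and the other late libraries lay within or next to the early range (adjusted p = 0.297 by edgeR). None of the 3 passed.

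Members were also grouped by subunit and by the systematic name of the protein in the mammalian structure, which either refers to a bacterial counterpart or is of the mitochondria-specific kind. The name does not settle descent, since Mrps18a and Mrps18b carry mitochondria-specific names although they are relatives of a bacterial protein. In the late against 0.5 h comparison the 10 small subunit members with mitochondria-specific names (Mrps18b, Mrps22, Mrps23, Mrps25, Mrps26, Mrps27, Mrps31, Mrps33, Mrps34 and Mrps35) had a median log2 fold change of 0.81. All 10 were positive and 1, Mrps18b, passed. The median was 0.51 for the 24 large subunit members tested with a bacterial-type name, of which none passed. It was 0.37 for the 20 large subunit members with mitochondria-specific names, of which Mrpl38 and Mrpl57 passed, and 0.41 for the 15 small subunit members with a bacterial-type name, of which Mrps18c passed. The small subunit class with mitochondria-specific names was also highest at each late time against rosiglitazone at 0.5 h, with medians of 0.79 at 24 h and 0.63 at 48 h, where the other classes lay between 0.44 and 0.49 and between 0.23 and 0.34. Its summed level was 783 and 512 CPM at 24 h and 500.5 and 688 CPM at 48 h, against 348 and 399 CPM at 0.5 h of rosiglitazone and 327 CPM with DMSO. These class differences are descriptions, since members of a class are not replicates and the 2 late comparisons share the 0.5 h libraries.

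Within that class, Mrps25 stood at 103 and 69.6 CPM at 24 h and 44.9 and 91.2 CPM at 48 h, against 40.9 and 46.0 CPM at 0.5 h of rosiglitazone and 32.0 CPM with DMSO, and did not pass (adjusted p = 0.0860 by edgeR). Mrps34, whose human counterpart is mutated in a form of Leigh syndrome, stood at 73.5 and 42.3 CPM at 24 h and 47.3 and 75.8 CPM at 48 h, against 31.4 and 31.6 CPM at 0.5 h of rosiglitazone and 29.0 CPM with DMSO, and did not pass (adjusted p = 0.0763 by edgeR). Mrps34 had no overlap between late and early libraries, while Mrps25 overlapped through its low replicate 1 at 48 h. Mrps26 had the smallest log2 fold change of the class, 0.15 ± 0.29 (SE), with 41.2 and 23.2 CPM at 24 h and 25.3 and 35.1 CPM at 48 h, against 28.3 and 30.7 CPM at 0.5 h of rosiglitazone and 25.3 CPM with DMSO.

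**Figure D5:**
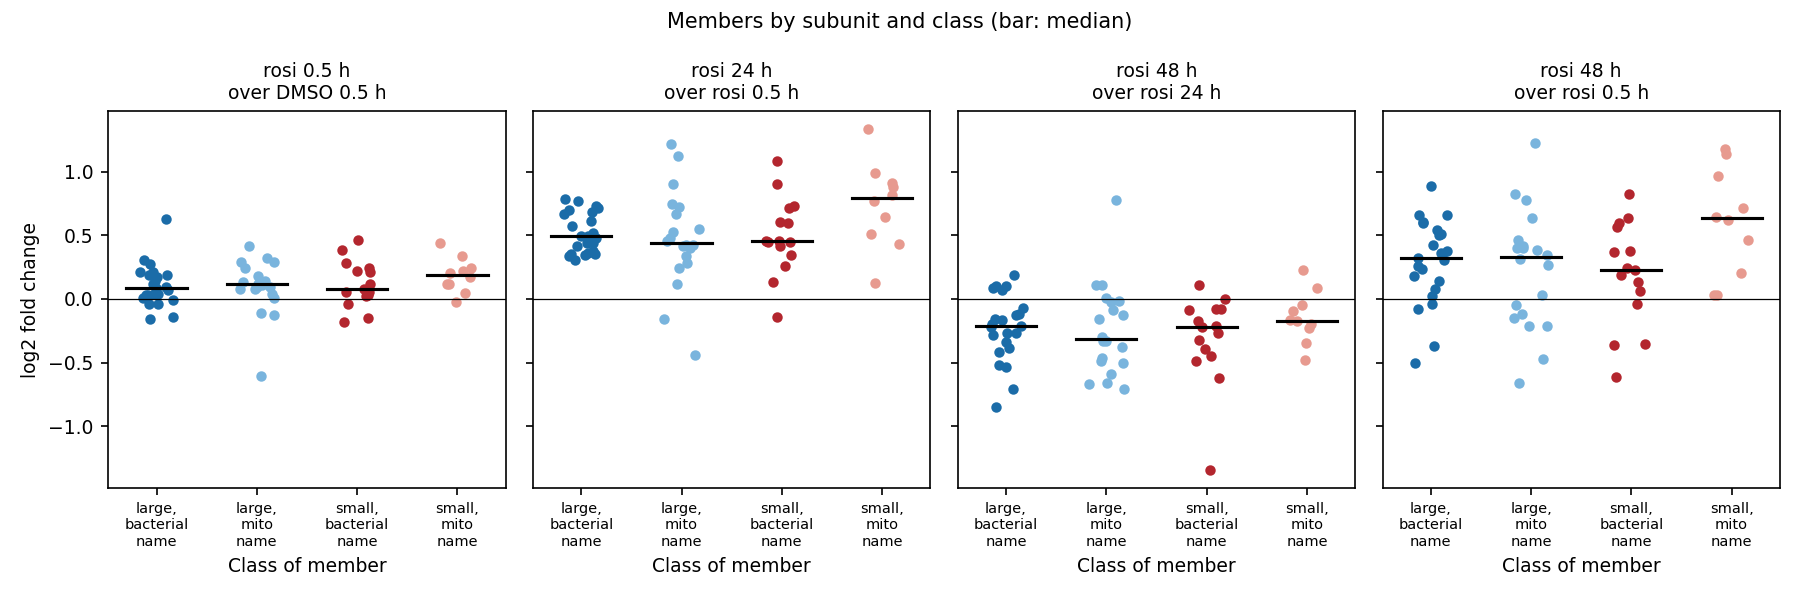
Log2 fold change of the members (points, vertical axis) by subunit and kind of systematic name, bacterial or mitochondria-specific (horizontal axis), in 4 comparisons, with a bar at each median. The small subunit members with mitochondria-specific names have medians of 0.79 for 24 h and 0.63 for 48 h over 0.5 h of rosiglitazone, and most members lie below 0 for 48 h over 24 h.

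Rosiglitazone against DMSO at 0.5 h is the only comparison with a vehicle library of the same time, and the vehicle group is 1 library whose spread is taken from the other groups. No member passed by edgeR's quasi-likelihood test, 0 had an unadjusted p under 0.05 and 0 passed by DESeq2. Among all genes 0.0% passed by edgeR, 0.0128% passed by DESeq2 and 0.607% had an unadjusted p under 0.05. The log2 fold change was positive for 60 of 72 members with a median of 0.12, against 51.7% of all genes and a median of 0.01. With 1 vehicle library, a lean of the treated cells and a deviation of that library cannot be told apart, and the median ranged between -0.03 and 0.27 when 1 library was left out.

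Among members averaging at least 5 CPM, the highest fold changes at 0.5 h belonged to Mrpl34, Mrps7, Mrps25 and Mrpl41. Mrpl34, one of the shortest large subunit proteins, had 14.1 and 19.9 CPM with rosiglitazone against 11.0 CPM with DMSO. Mrps7, which binds the small subunit RNA, had 37.8 and 41.4 CPM against 28.6 CPM. Both rosiglitazone libraries were above the DMSO library in each of these genes. The lowest fold changes belonged to Mrps10, Mrpl20, Mrps14 and Mrpl10, of which Mrpl10 anchors the stalk. Mrps10 had 13.4 and 14.4 CPM with rosiglitazone against 15.7 CPM with DMSO. Mrpl20, whose bacterial relative is needed early in large subunit assembly, had 38.1 and 51.7 CPM against 50.3 CPM, so its replicates lay on either side of the DMSO library. For 26 members both rosiglitazone libraries exceeded the DMSO library and for 6 both were below it, 36.1 and 8.33% of the members tested, where 30.2 and 31.8% of all genes were.

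After 24 h against 0.5 h of rosiglitazone, no member passed by edgeR, while 0.0958% of all genes did. DESeq2 called 3 members higher, Mrpl38, Mrps18b and Mrps18c, where it called 2.68% of all genes higher and 5.06% lower. At an unadjusted p under 0.05 edgeR had 8 members higher and 0 lower, where 6.55% of all genes were higher and 9.12% lower. The median log2 fold change was 0.48 with 68 of 72 members positive, against -0.03 and 48.4% over all genes. Leaving out replicate 1 at 24 h reduced the median to 0.07, against -0.12 over all genes. Leaving out replicate 2 at 24 h raised it to 0.89, against -0.14 over all genes. The group lean at 24 h therefore rested largely on replicate 1. Mrpl38 did not share this dependence, with 37.2 and 40.3 CPM at 24 h against 18.1 and 17.4 CPM at 0.5 h and a log2 fold change between 1.05 and 1.18 whichever library was left out. Mrps18b, at 1.34 ± 0.31 (SE; adjusted p = 0.113 by edgeR), and Mrps18c, at 1.09 ± 0.31 (SE; adjusted p = 0.160 by edgeR), had both 24 h libraries above both 0.5 h libraries. In all, 28 members were higher in both 24 h libraries and 1, Mrpl39, was lower, 38.9 and 1.39% of those tested, where 21.2 and 28.9% of all genes were. Mrpl44, a large subunit protein with a ribonuclease III-like fold, had 50.4 and 29.2 CPM at 24 h against 34.0 and 39.4 CPM at 0.5 h, so its 24 h libraries lay on either side of the earlier ones. Mrpl39, Mrps24 and Mrps26 were the other members at the low end among those averaging at least 5 CPM.

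From 24 to 48 h no member passed by edgeR or by DESeq2, where 0.0% of all genes passed by edgeR and 3.14% by DESeq2. At an unadjusted p under 0.05, 1 member, Mrps16, was lower and 0 were higher, where 5.34% of all genes were lower and 2.8% higher. The median log2 fold change was -0.20 with 15 of 72 members positive, against -0.01 and 46.2% over all genes. This lean also followed replicate 1 at 24 h, since the median was 0.29 without it and -0.54 without replicate 2 at 24 h. Mrps16, a small subunit protein whose human defect impairs mitochondrial translation, had 20.5 and 25.3 CPM at 48 h against 81.4 and 35.1 CPM at 24 h. Both 48 h libraries of Mrps16 were below both 24 h libraries, and also below its 0.5 h libraries at 29.0 and 41.1 CPM, with a log2 fold change from 24 to 48 h of -1.35 ± 0.44 (SE; adjusted p = 0.441 by edgeR). Mrpl55 was the 1 member higher in both 48 h libraries, with 37.3 and 50.0 CPM against 35.8 and 30.0 CPM, and did not pass (adjusted p = 0.779 by edgeR). Another 10 members, Mrps16 and Mrpl39 among them, were lower in both, 13.9% of those tested, where 14.5% of all genes were higher and 14.6% lower. Next after Mrpl55 came Mrps33, Mrpl33 and Mrpl52 at the high end, and next after Mrps16 came Mrps36, Mrpl14 and Mrpl48 at the low end, none of which passed. Mrpl58, which releases peptides from stalled mitochondrial ribosomes, had 27.6 and 28.9 CPM at 48 h against 55.5 and 34.4 CPM at 24 h and did not pass (adjusted p = 0.686 by edgeR).

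Over the whole course, 48 h against 0.5 h of rosiglitazone, 0 members passed by edgeR, where 6.59% of all genes did, and 3 passed by DESeq2, all higher (Mrpl55, Mrpl57 and Mrps18b), where DESeq2 called 5.47% of all genes higher and 10.8% lower. At an unadjusted p under 0.05, 6 members were higher and 0 lower, where 9.65% of all genes were higher and 13.3% lower. The median was 0.35 with 56 of 72 positive, against -0.07 and 46.1% over all genes. Mrps18b, with 58.7 and 82.0 CPM at 48 h against 28.9 and 33.3 CPM at 0.5 h, came closest (log2 fold change 1.18 ± 0.31, SE; adjusted p = 0.0652 by edgeR). Mrpl55, with 37.3 and 50.0 CPM against 19.8 and 21.0 CPM, followed (log2 fold change 1.10 ± 0.31, SE; adjusted p = 0.0835 by edgeR). In the other direction Mrps36 was lowest, with 20.0 and 23.8 CPM at 48 h against 33.1 and 47.3 CPM at 0.5 h. Mrpl39, Mrps16 and Mrpl14 came next, and none of these 4 passed (smallest adjusted p = 0.297 by edgeR, for Mrpl39). Both late libraries were above both early ones for 27 members and below for 8, 37.5 and 11.1% of those tested, where 28.3 and 34.4% of all genes were.

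Seen as a share of the members' own counts, which removes the level of the group as a whole, 7 members were higher in every late library (Mrpl57, Mrps18b, Mrps18c, Mrps23, Mrps33, Mrps34 and Mrps35), 9 were lower (Mrpl4, Mrpl18, Mrpl19, Mrpl39, Mrpl44, Mrpl48, Mrpl50, Mrps24 and Mrps26) and 58 overlapped. Shares of a fixed total must balance, so a rise of some members brings a fall of others. No share over all genes corresponds to these counts. The 58 include Mrpl1, Mrpl36 and Mrpl53, which had no counts in most or all libraries. Mrps18b took 1.73 and 2.29% at 24 h and 1.89 and 2.11% at 48 h, against 1.16 and 1.09% at 0.5 h of rosiglitazone and 1.03% with DMSO. Mrps24 took 0.624 and 0.552% at 24 h and 0.577 and 0.623% at 48 h, against 0.962 and 0.983% at 0.5 h of rosiglitazone and 0.978% with DMSO. The replicates of Mrps24 agreed closely on this scale, although its CPM overlapped between late and early libraries. Mrpl44 took 0.980 and 0.973% at 24 h and 1.07 and 0.773% at 48 h, against 1.37 and 1.30% at 0.5 h of rosiglitazone and 1.36% with DMSO. The ratio of counts of Mrpl to Mrps genes was 1.52 and 1.56 at 24 h and 1.59 and 1.51 at 48 h, against 1.58 and 1.65 at 0.5 h of rosiglitazone and 1.65 with DMSO. The late and early ratios overlapped. With members placed by the mammalian structure (Mrps18a and Mrps30 in the large subunit, Mrps36 left out), the ratio was 1.85 and 1.85 at 24 h and 1.92 and 1.78 at 48 h, against 1.90 and 2.02 at 0.5 h of rosiglitazone and 2.01 with DMSO.

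Most members followed each other across libraries. For each of the 71 members with counts in every library, log2 CPM was correlated with the median of the other members over the 7 libraries, which share their depth and composition. The median Pearson r was 0.85, 45 members were above 0.8 and 6 below 0.5. Replicate 1 at 24 h was the highest library for 57 of the 71, which weighs on r over so few libraries. Whether other genes follow each other as closely was not tested. Mrps18a and Mrpl12 lay closest to the rest at 0.98 each. Mrpl39 at -0.21 and Mrpl49 at -0.35 were the most negative, and Mrps10, with 19.4 and 32.6 CPM at 24 h and 31.5 and 17.5 CPM at 48 h against 13.4 and 14.4 CPM at 0.5 h of rosiglitazone and 15.7 CPM with DMSO, was near 0. In Mrps10 the high late libraries were replicate 2 at 24 h and replicate 1 at 48 h, the ones in which most members were the lower of the pair.

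Genes that work with the mitochondrial ribosome were counted in the late against 0.5 h comparison, from lists written for the purpose. Over all genes tested, 4.11% rose and 7.29% fell in this comparison. Of 23 assembly and rRNA modification factors tested, 2 rose and 0 fell, with a median log2 fold change of 0.46. Ngrn, needed for modification of the large mitochondrial rRNA, stood at 37.6 and 41.7 CPM at 24 h and 58.6 and 54.2 CPM at 48 h, against 26.7 and 27.2 CPM at 0.5 h of rosiglitazone and 18.9 CPM with DMSO, a log2 fold change of 0.98 ± 0.21 (SE; adjusted p = 0.0283 by edgeR). Mterf3, which acts in ribosome biogenesis and transcription, stood at 73.5 and 58.4 CPM at 24 h and 65.7 and 70.5 CPM at 48 h, against 37.0 and 31.6 CPM at 0.5 h of rosiglitazone and 33.8 CPM with DMSO, a log2 fold change of 0.97 ± 0.22 (SE; adjusted p = 0.0305 by edgeR). In both genes every late library exceeded every early one. Of 11 translation factors 1 rose, the release factor Mtrf1 at 1.00 ± 0.24 (log2, SE; adjusted p = 0.0398 by edgeR), with a median of 0.42. Of 16 mitochondrial aminoacyl-tRNA synthetases 1 rose, the phenylalanyl enzyme Fars2 at 0.96 ± 0.24 (log2, SE; adjusted p = 0.0448 by edgeR), with a median of 0.30. None of the 5 mitochondrial ribosomal proteins with other symbols, such as Dap3, passed.

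Among 16 transcription and biogenesis factors, 3 rose and 1 fell, beside the 4.11 and 7.29% of all genes. Those that rose were Esrra, a nuclear receptor that drives mitochondrial genes, at 1.10 ± 0.22 (log2, SE; adjusted p = 0.0213 by edgeR), Lrpprc, which stabilises mitochondrial messages, at 0.99 ± 0.22 (adjusted p = 0.0296) and Tfam, which packages and transcribes the mitochondrial genome, at 0.86 ± 0.21 (adjusted p = 0.0379). Ppargc1a, a coactivator of mitochondrial biogenesis, fell to 4.24 and 2.26 CPM at 24 h and 1.90 and 1.86 CPM at 48 h, against 14.5 and 20.7 CPM at 0.5 h of rosiglitazone and 12.4 CPM with DMSO, a log2 fold change of -2.66 ± 0.40 (SE; adjusted p = 0.00999 by edgeR).

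Transcripts for the proteins that the mitochondrial ribosome makes, and for their nuclear partners, went a different way in part. Of 12 genes of the mitochondrial genome tested, 0 were positive, the median log2 fold change was -1.15 and 2 fell, Mt-atp8 and Mt-nd4l, short subunits of ATP synthase and of complex I. The late libraries were not uniform in the sum of the mitochondrial genome. It was 3.29 and 0.801% at 24 h and 0.900 and 0.604% at 48 h. At 0.5 h it was 2.24 and 2.04% with rosiglitazone and 2.13% with DMSO, so replicate 1 at 24 h lay above every 0.5 h library. Of 76 nuclear subunits of oxidative phosphorylation tested, 54 were positive with a median of 0.15, where 46.9% of all genes were positive. By edgeR 0 passed in either direction. At an unadjusted p under 0.05, 6 were higher and 2 lower, where 12.1% of all genes were higher and 16.4% lower. At 48 h against 0.5 h of rosiglitazone these nuclear subunits had a median of -0.23 with 28 of 76 positive. The mitochondrial genome had a median of -1.98 with 0 of 12 positive. Beside these stood 0.35 and 56 of 72 for the ribosomal proteins of the mitochondrion, and 46.1% positive over all genes. Cytosolic ribosomal protein genes, with 16 of 68 (23.5%) higher and 0 lower, beside 4.11 and 7.29% of all genes, and a median of 0.92, leaned further up than the mitochondrial ones in the late against 0.5 h comparison. These differences between lists were not tested.

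The authors' deposited tables give their own results, with each sequencing split as a column of its own. Splits of a library differed by no more than sampling noise and are not replicates. If they were counted as replicates, the adjusted p-values would not measure the spread between libraries. With splits summed, 0 members passed by edgeR in each of the comparisons below. In the authors' deposited table for 0.5 h of rosiglitazone against DMSO, 3 of the 71 members that have an adjusted p there passed the threshold of 0.05 as higher (Mrps7, Mrps25 and Mrps18c) and 0 as lower, where 5.07% of all genes passed as higher and 5.96% as lower. In the authors' deposited table for 24 h against 0.5 h, 32 of 71 members passed as higher and 0 as lower, where 17.8% of all genes passed as higher and 21.2% as lower. Mrpl38 had the smallest adjusted p of the members in the authors' deposited table, with a log2 fold change of 1.14, followed by Mrps18b at 1.34 and Mrps18c at 1.09. In the authors' deposited table for 48 h against 24 h, 0 of 72 members passed as higher and 6 as lower (Mrps22, Mrps16, Mrpl58, Mrpl39, Mrpl4 and Mrpl48), where 6.99% of all genes passed as higher and 9.46% as lower.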

How the data were processed

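RNA of 7 libraries was measured by sequencing, per the labels' protocols with a directional kit. Per the file headers, the authors deposited raw counts for every gene and split, with their mean normalised signal per gene, log2 fold change and its error, a Wald score and p-values. FastQC 0.11.5, cutadapt 1.11, HTSeq, DESeq2 and the builds Rnor_6.0 and hg19 are named in the submitters' processing notes. Aligner and strand setting: not given in the sources used here. The tables list 33005 entries for 32545 genes, since 460 entries repeat a gene, and each gene was used once. Counts of the 4 libraries found in 2 tables were equal in both. The series title speaks of mice, but the identifiers are of rat.

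Each library was deposited as 2 splits, which differed by no more than sampling noise (over genes with at least 20 counts, a chi-square of 0.963 to 1.02 per degree of freedom, against 49.1 to 278 for 2 libraries of a group), and they were summed. Genes were tested by edgeR 4.0.16 (R 4.3.3) in 1 robust quasi-likelihood fit of the 4 groups, with TMM scaling, edgeR's default expression filter and 3 residual degrees of freedom, and with Benjamini-Hochberg adjustment over 15655 genes. The standard error of a log2 fold change was derived from its F statistic. The fit was tested on simulated counts in which 50 genes were changed by each of several folds. Over the comparisons it recovered 0 to 3 of the 50 genes changed 2-fold. For late against 0.5 h it recovered 1 of 50 changed 2-fold, 30 of 50 changed 4-fold, 33 of 50 changed 8-fold and 37 of 50 changed 16-fold. That simulation, with all folds together, gave 15 false calls. Most changes near 2-fold would thus not pass, and a member that did not pass may still have changed. Limits from a count of 0 (3 counts) cover counting error only, because reads without identifiers can repeat a molecule.

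The members, the gene lists, the tests and the rule for naming genes were chosen with earlier results of these data known. The rule names, per comparison, members past the threshold and the 4 with the highest and the 4 with the lowest fold change among those with a mean of at least 5 CPM. Over the series it names the 4 members with the most and the 4 with the fewest counts, the 3 with the largest and the 3 with the smallest spread, the 3 with the lowest correlation with the rest, and a fixed set known from disease or structure. Other members named with values were chosen after their values were seen. Alternatives were DESeq2 1.42.0 as the test, its size factors, total count scaling, other filters, the replicate number as a block, each split alone, leaving out the 3 members with the most counts and leaving out each library. The gene table used for symbols held 73 of the 74 member symbols. Transcript lengths and sequences were not used here.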

Additional observations from a re-analysis of the deposited data

How the results depend on the processing

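Scaling by DESeq2 size factors or by total counts and a filter at a mean of 5 CPM changed no count of members past the threshold. With DESeq2 as the test, 3 members passed for 24 h against 0.5 h, 3 for 48 h against 0.5 h and 8 for the late against 0.5 h libraries, and 2, 1212, 492, 2547 and 3337 genes passed for 0.5 h against DMSO, 24 h against 0.5 h, 48 h against 24 h, 48 h against 0.5 h and late against 0.5 h. Without a filter the first 3 of these gave 1, 334 and 19 genes. Leaving out 1 library at a time gave 0 to 1008 genes and 0 to 1 member for 24 h against 0.5 h, 0 to 509 genes and 0 to 2 members for 48 h against 24 h, 12 to 2706 genes and 0 to 4 members for 48 h against 0.5 h, and 288 to 3569 genes and 0 to 20 members for late against 0.5 h. The median of the members then ranged from -0.54 to 0.29 for 48 h against 24 h and from 0.22 to 0.59 for late against 0.5 h. The cause of these shifts was not tested.

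The replicate numbers did not pair the libraries: deviations of same-numbered libraries correlated at -0.083 between 0.5 and 24 h, 0.062 between 0.5 and 48 h and -0.122 between 24 and 48 h. With the replicate number as a block, 1 gene passed for 24 h against 0.5 h, 407 for 48 h against 0.5 h and 785 for late against 0.5 h, where 0 members passed, and Mrps14 at 0.5 h against DMSO changed sign to 0.013 on the log2 scale. With the numbers crossed between 24 and 48 h, an alternative chosen after seeing the data, 5 genes and 0 members passed.

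Leaving out 1 library reversed the sign of some members that had not passed. The log2 fold changes ranged from -0.40 to 0.042 for Mrpl20 at 0.5 h against DMSO. For 24 h against 0.5 h they ranged from -0.70 to 0.24 for Mrps24, -0.33 to 0.44 for Mrpl44 and -0.35 to 0.47 for Mrps26. For 48 h against 24 h they ranged from -0.17 to 0.67 for Mrps33, -0.23 to 0.76 for Mrpl33, -0.22 to 0.45 for Mrpl52, -1.86 to 1.02 for Mrps36 and -1.41 to 0.037 for Mrpl14. For late against 0.5 h they ranged from -1.32 to 0.084 for Mrps36 and -0.49 to 0.20 for Mrpl14. Without the 3 members with the most counts, the ratio of Mrpl to Mrps counts was 1.22 and 1.21 at 24 h and 1.28 and 1.19 at 48 h, against 1.28 and 1.33 at 0.5 h of rosiglitazone and 1.36 with DMSO. Each split alone gave the same shares and ratios within the spread between replicates. With 2 libraries a group and 1 for DMSO, the precision is limited by the spread between libraries more than by depth, and replicate 2 at 48 h is the shallowest.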
